A study of Mus musculus with 6 samples.

Results

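The lysosomal genes described here are 43 genes that encode the acid hydrolases of the lysosome, their cofactors, lysosomal membrane proteins, subunits of the proton pump, and the transcription factors TFEB and TFE3. They were chosen by gene symbol from a written list, made with earlier results of these data known. All 43 symbols were found among the 55487 genes of each table. RNA-seq had been made from CD8+ T cells of C57BL/6 mice, lymphocytes that lyse target cells through granules. Cells of the first group (3 libraries) had been exposed for 48 h to itaconate at 5 mM. Itaconate is a small acid branching off the tricarboxylic acid cycle, best known as a product of inflammatory macrophages. Cells of the second group (3 libraries) received NaCl over the same 48 h. The sources used here do not say how cells were purified, whether they were stimulated, or if each replicate was its own mouse or culture. The p-values therefore reflect only how much these 6 libraries vary, and that variation may be technical.

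Lysosomes are the acidic compartments in which cells break down proteins, glycans, lipids and worn organelles. Their hydrolases are made in the endoplasmic reticulum, most are sorted by a mannose 6-phosphate tag, and the vacuolar proton pump keeps the lumen acidic enough for them to work. TFEB and TFE3 are held in the cytoplasm when the kinase complex mTORC1 is active on the lysosomal surface. When that kinase is quiet they enter the nucleus and switch on many lysosomal genes through E-box motifs, known as CLEAR elements, in promoters. In cytotoxic T cells the granules that carry granzymes and perforin are lysosome-related organelles and hold cathepsins and LAMP proteins.

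Expected counts summed to 18280217 to 23609543 in the itaconate libraries and to 20469874 to 31643408 in the NaCl libraries. CD8 lineage genes were abundant, with Cd8a at 630 to 659 CPM (a count divided by the library's total after scaling with edgeR's TMM factors) in itaconate libraries and at 472 to 526 CPM in NaCl libraries, and Cd4 stayed under 6 CPM in every library. The 8 T cell markers summed to 3609 to 3628 CPM with itaconate and to 3095 to 3221 CPM with NaCl, and 2 of them, Cd8a and Thy1, rose. Macrophages are rich in lysosomal transcripts, so their markers are given here. The 12 macrophage and monocyte markers summed to 2.94 to 11.02 CPM in itaconate libraries and to 6.27 to 7.37 CPM in NaCl libraries. Of the 12, 10 were under 1 CPM in all 6 libraries, and the F4/80 gene Adgre1 and the CD64 gene Fcgr1 did not exceed 0.172 CPM. The others were Mpeg1, at 2.22 to 8.11 CPM over the 6 libraries, and Lyz2, at 0.111 to 2.02 CPM, and neither passed. Markers of dendritic cells summed to 14.8 to 49.5 CPM with itaconate and 23.9 to 43.7 CPM with NaCl. Of these 8 markers, 5 were under 1 CPM in all 6 libraries, with Siglech and Cd209a at 0 throughout. The others were the MHC class II genes H2-Aa (4.22 to 16.1 CPM over the 6 libraries), H2-Ab1 (6.33 to 20.35) and H2-Eb1 (3.83 to 15.8), which did not pass. B cell markers summed to 9.996 to 21.7 CPM with itaconate and to 11.99 to 18.95 CPM with NaCl. The sums for neutrophils were 0.0555 to 15.5 CPM with itaconate, the highest in replicate 3, and 0 to 3.72 CPM with NaCl. Of the CD4 T cell markers, Foxp3, the factor of regulatory T cells, rose to 15.04, 10.99 and 11.15 CPM in itaconate libraries, against 2.60, 1.55 and 1.46 CPM in NaCl libraries (edgeR adjusted p 1.1e-05), while Cd4 and Cd40lg did not pass. The part of these cells in the results below was not tested. In bulk RNA, fewer cells of a type and less RNA per cell cannot be told apart.

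Most lysosomal genes differed little between itaconate and NaCl. Of the 43 genes, all of which passed the low-count filter, 4 rose, 1 fell and 38 did not pass edgeR's quasi-likelihood test at a Benjamini-Hochberg adjusted p under 0.05. The 4 that rose were the glycosidase genes Glb1 and Gaa, the sulfatase gene Arsa and the cathepsin gene Ctsz, and the gene that fell was Laptm5. Among all 12350 genes tested, 6.68% rose and 5.36% fell, beside 9.30% (4 genes) and 2.33% (1 gene) of the lysosomal genes. Called in either direction were 11.6% of the lysosomal genes against 12.0% of all genes tested. The median log2 fold change of the 43 genes was 0.0040, beside 0.0059 for all genes tested, and their range ran from -0.49 to 0.56, so no member changed 2-fold. The counts depended on single libraries. They were 2 higher and 0 lower without itaconate replicate 2, 1 and 0 without itaconate replicate 3, and 1 and 0 without NaCl replicate 2. The share of all genes called also fell in these fits, to 7.02%, 6.66% and 5.7%. Without itaconate replicate 1, NaCl replicate 1 or NaCl replicate 3 the counts were 6, 5 and 3 higher and 1 lower each. All genes called in those fits were 9.93%, 9.03% and 11.2%.

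The intervals bound the size of the differences. For 27 of the 43 genes (62.8%) the whole 95% interval of the fold change lay within 1.25-fold in either direction, as it did for 45.6% of all genes tested, many of which have lower counts. The widest intervals belonged to the genes with the fewest counts. Ctsh, which encodes the aminopeptidase cathepsin H, held 5 to 14 counts per itaconate library and 11 to 24 per NaCl library, and its interval ran from -1.50 to 0.52 on the log2 scale. For 11 genes all CPM of one group lay beyond those of the other (25.6%, against 31.2% of all genes tested), 9 with every itaconate library above every NaCl library and 2 with every one below. Summed over the 43 genes, the level was 2800, 2806 and 2851 CPM in itaconate libraries and 2847, 2769 and 2801 CPM in NaCl libraries, which overlap. By role, the sums of 3 groups did not overlap, in opposite directions. The proteases summed to 627, 617 and 630 CPM with itaconate, above the 608, 571 and 584 CPM with NaCl. Among them Ctsd (mean 195 CPM with itaconate, 171 with NaCl) and Ctsz (85.5 and 71.1) differed most in CPM. Of the 10 proteases, 6 had a fold change below 0. The pair of transcription factors lay narrowly above, at 55.6, 55.8 and 59.5 CPM with itaconate and 48.4, 55.48 and 55.53 CPM with NaCl. The membrane proteins, of which Laptm5 made up most, lay below, at 836, 820 and 826 CPM with itaconate and 886, 890 and 886 CPM with NaCl. In TPM the sums of the membrane proteins again did not overlap, at 482, 443 and 466 with itaconate and 555, 545 and 499.8 with NaCl, while those of the proteases and of the transcription factors did.

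**Figure D1:**
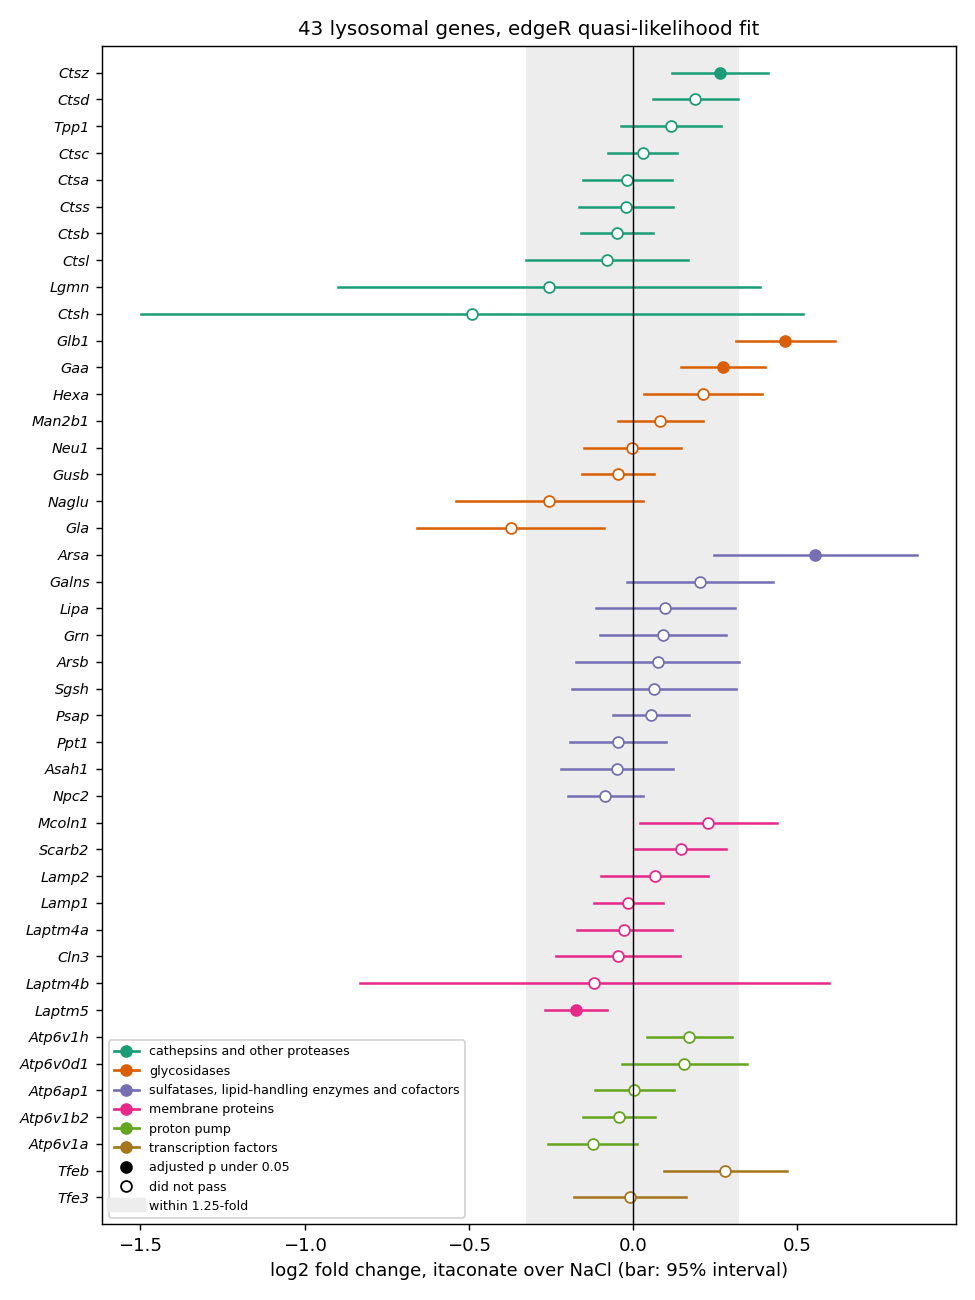
Log2 fold change (itaconate over NaCl, horizontal axis) of the 43 lysosomal genes, grouped by role, with the 95% interval of the edgeR fit as a bar. Filled dots mark the 5 genes past an adjusted p of 0.05, and the grey band marks a change within 1.25-fold, which holds the whole interval of 27 genes.

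Among the glycosidases, which trim sugars from glycoproteins, glycolipids and glycogen, 2 of 8 rose (25.0%, against 6.68% of all genes tested) and 6 did not pass. Glb1 encodes the beta-galactosidase that removes terminal galactose from gangliosides and keratan sulfate. It was at 40.3, 43.5 and 41.9 CPM in itaconate libraries and at 32.1, 30.7 and 28.35 CPM in NaCl libraries. Every itaconate library lay above every NaCl library, and the means were 41.9 ± 1.59 CPM with itaconate and 30.4 ± 1.90 CPM with NaCl (SD, n = 3 each, as for all means here), a log2 fold change of 0.47 ± 0.070 (SE; edgeR adjusted p 0.000816). Its rise was called in each fit that left out 1 library (adjusted p up to 0.0101) and with effective-length offsets (0.0146), but on TPM, which divide by effective transcript length, limma's adjusted p was 0.0543. In TPM, Glb1 stood at 23.1, 23.4 and 23.1 in itaconate libraries and at 19.0, 17.9 and 15.8 in NaCl libraries, again without overlap. Glb1 shares exon sequence with Tmppe on the same strand, whose CPM averaged 6.19 ± 0.725 with itaconate and 6.405 ± 1.395 with NaCl (edgeR adjusted p 0.927), and how the authors' counting divided the shared reads is not known.

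Gaa encodes acid alpha-glucosidase, which breaks down glycogen in lysosomes. Its level was 74.1, 67.5 and 75.1 CPM with itaconate and 60.9, 57.5 and 60.9 CPM with NaCl. The groups did not overlap, and the log2 fold change was 0.27 ± 0.060 (SE; edgeR adjusted p 0.00900). The call was lost without itaconate replicate 3 (adjusted p 0.0551) or NaCl replicate 2 (0.0679), with effective-length offsets (0.0749) and on log2(TPM + 1) with limma (0.293). The other glycosidases moved in both directions without passing. Gla, the alpha-galactosidase that cleaves globosides, had 7.37, 10.3 and 10.6 CPM in itaconate libraries and 12.7, 12.2 and 11.8 CPM in NaCl libraries, so that every itaconate library lay below every NaCl library, yet its adjusted p was 0.0848 (log2 fold change -0.37 ± 0.13). Hexa, the alpha subunit of beta-hexosaminidase, which degrades GM2 ganglioside, lay above NaCl in every itaconate library and did not pass either (0.21 ± 0.084, adjusted p 0.116). Naglu, an enzyme of heparan sulfate breakdown, was at -0.25 ± 0.13, and Man2b1, an alpha-mannosidase, at 0.08 ± 0.060. Gusb, the beta-glucuronidase, and Neu1, the sialidase, had intervals within 1.25-fold.

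Of the 10 cathepsins and other proteases, 1 rose and 9 did not pass, while 6.68% of all genes tested rose. Ctsz, the carboxypeptidase also called cathepsin X, had 84.6, 86.3 and 85.7 CPM with itaconate and 64.85, 69.35 and 79.1 CPM with NaCl. The itaconate libraries were close together and all above the NaCl libraries, which spread more, and the log2 fold change was 0.27 ± 0.068 (SE; edgeR adjusted p 0.0208). Leaving out itaconate replicate 2 (adjusted p 0.0744) or 3 (0.0739), or NaCl replicate 1 (0.0688) or 2 (0.104), ended the call, as did effective-length offsets (0.0817) and TPM (0.137). Its exons overlap those of Nelfcd on the opposite strand, which was at 59.55 ± 4.62 CPM with itaconate and 58.7 ± 3.81 CPM with NaCl (adjusted p 0.897), and no source used here gives the strand setting of the counting.

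The aspartic protease Ctsd, an abundant endopeptidase of lysosomes, was at 201.5, 190 and 193 CPM in itaconate libraries and at 188, 157 and 167 CPM in NaCl libraries. Every itaconate library lay above the NaCl libraries, NaCl replicate 1 close behind, and the test just missed (0.19 ± 0.061, edgeR adjusted p 0.0563). Its exons overlap those of Gm49369 on the same strand. With all 6 libraries, Ctsd was called with replicate number as a block (edgeR adjusted p 0.00384) and without the low-count filter (0.00765). With effective-length offsets it was not (0.185, adjusted p 0.162). Without NaCl replicate 1 it was called too (0.26, adjusted p 0.00508). That library differed from the others in the length that RSEM subtracts from transcripts for the fragment size, 259 bases against 229 to 239, and the part of this in the result was not tested. Ctsb, a cysteine protease, had 108, 103 and 107 CPM with itaconate and 115, 107 and 107 CPM with NaCl, which overlap, and its interval of -0.16 to 0.06 lies within 1.25-fold. Ctsc, the dipeptidyl peptidase that activates granzymes by removing their propeptide, was at 107, 111 and 114 CPM with itaconate and 110, 108 and 107 CPM with NaCl, and its interval of -0.08 to 0.14 was as narrow. Ctss and Ctsl, endopeptidases known for trimming the MHC class II invariant chain in antigen-presenting cells, the carboxypeptidase Ctsa, which stabilises beta-galactosidase and the sialidase in a complex, and Tpp1, a tripeptidyl peptidase, lay between -0.08 and 0.11. Ctsh and Lgmn, an asparaginyl endopeptidase, were low, at 0.858 and 1.19 TPM over all libraries.

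Arsa was the member with the largest fold change among the sulfatases, lipid-handling enzymes and cofactors, where 1 of 10 rose and 9 did not pass. Of all genes tested, 6.68% rose. Arsa encodes arylsulfatase A, which removes sulfate from sulfatides. Itaconate libraries held 166, 221 and 250 counts of it, or 8.21, 12.3 and 10.7 CPM, and NaCl libraries held 192, 151 and 214 counts, or 7.13, 7.30 and 6.79 CPM. The groups did not overlap, itaconate replicate 1 was nearest to the NaCl libraries, and the log2 fold change was 0.56 ± 0.14 (SE; edgeR adjusted p 0.0222). The call was lost without itaconate replicate 2 (adjusted p 0.114) or 3 (0.0819), without NaCl replicate 2 (0.0758) or 3 (0.0644), with effective-length offsets (0.0885) and on TPM (0.171). An uncharacterised gene on the opposite strand, C230037L18Rik, overlaps it at 0.339 ± 0.164 CPM with itaconate and 0.464 ± 0.213 CPM with NaCl. The other 3 sulfatases, Galns of keratan sulfate, Arsb of dermatan sulfate and Sgsh of heparan sulfate breakdown, stood at 0.21 ± 0.10, 0.08 ± 0.12 and 0.06 ± 0.12 and did not pass. Galns was called without NaCl replicate 1 (0.32, adjusted p 0.0486).

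The abundant cofactors differed little. Psap, the precursor of the saposins that present sphingolipids to their hydrolases, averaged 200 ± 4.21 CPM with itaconate and 192 ± 13.95 CPM with NaCl (interval -0.06 to 0.17). Npc2, which hands cholesterol to the export protein NPC1, averaged 184 ± 10.05 CPM with itaconate and 195 ± 8.92 CPM with NaCl (interval -0.20 to 0.03). Asah1, the acid ceramidase, Lipa, the acid lipase of cholesteryl esters, Ppt1, which removes palmitate from proteins, and Grn, which encodes progranulin, lay between -0.05 and 0.10, each with an interval inside 1.25-fold.

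**Figure D2:**
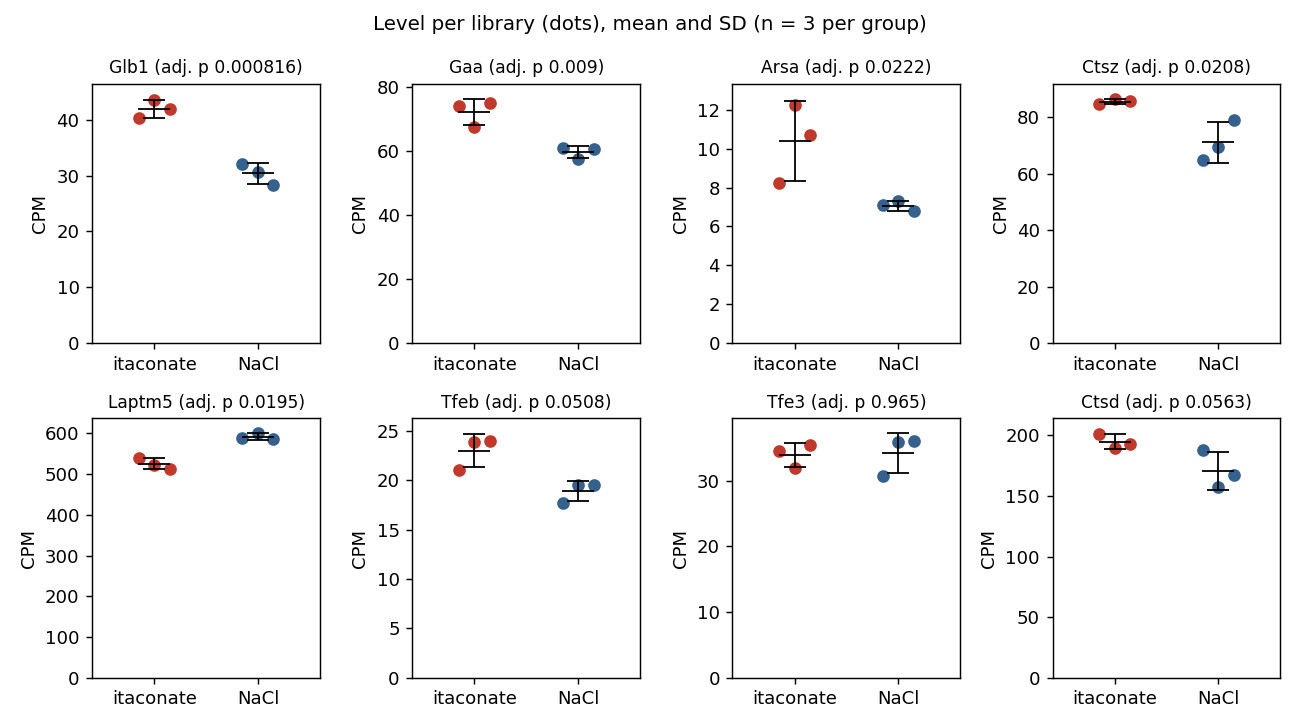
Level in CPM (vertical axis, from 0) of 8 lysosomal genes in each of the 3 itaconate and 3 NaCl libraries (dots), with the mean and SD of each group and the edgeR adjusted p in each title. The itaconate dots lie above all NaCl dots for Glb1, Gaa, Arsa, Ctsz, Tfeb and Ctsd, below them for Laptm5, and among them for Tfe3.

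Lysosomal membrane proteins gave the single decrease, with 1 of 8 lower (12.5%, against 5.36% of all genes tested) and 7 that did not pass. Laptm5, a transmembrane protein of haematopoietic cells that in mouse T cells is known to send the CD3 zeta chain of the antigen receptor to lysosomes, was the most abundant member per gene length, at 309 TPM over all libraries. It fell to 540, 523 and 514 CPM in itaconate libraries, against 589, 602 and 586 CPM in NaCl libraries. The groups did not overlap, although the size was small (-0.17 ± 0.044, SE; edgeR adjusted p 0.0195). The call did not hold without itaconate replicate 2 (adjusted p 0.0650) or 3 (0.104) or NaCl replicate 2 (0.0837), or with limma on log2(TPM + 1) (0.0763), where the difference was -0.29. Its relatives Laptm4a and Laptm4b did not pass, and Laptm4b was low, at 1.43 TPM.

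Lamp1 and Lamp2, the heavily glycosylated proteins that line the lysosomal membrane, differed little. Lamp1 had 128, 135 and 137 CPM with itaconate and 133, 132 and 139 CPM with NaCl, and Lamp2, which is also needed for fusion with autophagosomes, had 32.2, 29.1 and 34.7 CPM with itaconate and 30.0, 30.9 and 31.0 CPM with NaCl. Both overlapped between the groups, with intervals of -0.12 to 0.09 and -0.10 to 0.23. Mcoln1, the calcium channel TRPML1 through which lysosomes activate calcineurin and so TFEB, was at 17.4, 19.9 and 18.7 CPM with itaconate and at 17.45, 14.8 and 15.3 CPM with NaCl. Itaconate replicate 1 and NaCl replicate 1 were alike, and it did not pass (0.23 ± 0.097, edgeR adjusted p 0.145). Scarb2, the receptor LIMP-2 that carries glucocerebrosidase to lysosomes, was at 0.15 ± 0.065, and Cln3, the protein missing in juvenile Batten disease, at -0.04 ± 0.088.

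None of the 5 proton pump genes passed edgeR's test or DESeq2's, and 1, Atp6v1h, was under an unadjusted p of 0.05 in each. With edgeR, 26.5% of all genes tested were under that unadjusted p. Atp6v1h, a regulatory subunit of the cytosolic sector that splits ATP, had 60.3, 67.3 and 66.3 CPM in itaconate libraries and 57.6, 55.8 and 58.6 CPM in NaCl libraries, without overlap (0.17 ± 0.061, adjusted p 0.0805). It was called without itaconate replicate 1 (0.22, adjusted p 0.0426). The catalytic subunit Atp6v1a lay on the other side of 0, at -0.12 ± 0.063 (adjusted p 0.241). Its partner in the catalytic ring, Atp6v1b2, and the accessory protein Atp6ap1 were at -0.04 ± 0.052 and 0.0040 ± 0.056, and Atp6v0d1 of the membrane sector at 0.16 ± 0.088. Together the 5 genes summed to 329, 354 and 353 CPM with itaconate and to 335, 347 and 349 CPM with NaCl, which overlap.

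Neither transcription factor gene passed, though Tfeb was at the edge of the threshold. Tfeb had 21.1, 23.9 and 24.0 CPM in itaconate libraries and 17.7, 19.5 and 19.5 CPM in NaCl libraries. Each itaconate library lay above each NaCl library, at a log2 fold change of 0.28 ± 0.088 (SE) with an edgeR adjusted p of 0.0508, and over 16 alternative analyses it passed in 4, with adjusted p-values from 0.0181 to 0.320. Among them it passed without itaconate replicate 1 (0.0348). Tfe3 had 34.5, 31.9 and 35.5 CPM with itaconate and 30.7, 36.0 and 36.0 CPM with NaCl, which overlap, with an interval of -0.18 to 0.16. The ratio of Tfe3 to Tfeb, each in TPM and so per gene length, was 1.10, 0.894 and 0.9749 in itaconate libraries and 1.11, 1.236 and 1.25 in NaCl libraries. Every itaconate library lay below every NaCl library, the replicates numbered 1 nearly meeting, and this difference was not tested. Neither value bears on how much of either protein was in the nucleus, which these data did not measure.

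**Figure D3:**
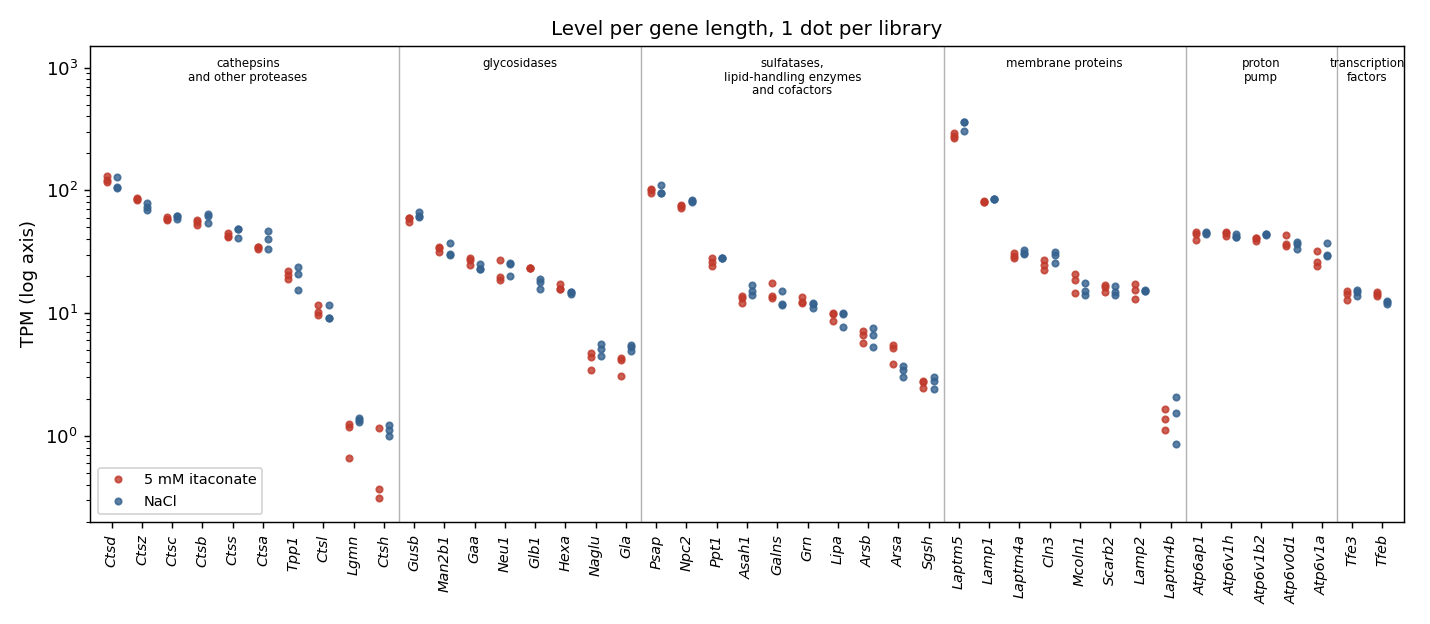
Level in TPM (log axis) of the 43 lysosomal genes in the 3 itaconate and the 3 NaCl libraries (1 dot per library), by role and by falling mean within each role. Mean levels ran from 0.858 TPM for Ctsh to 309 TPM for Laptm5, a spread far wider than any difference between the groups.

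Promoters of lysosomal genes are where TFEB and TFE3 bind, so their sequence is shown beside the fold changes. RefSeq promoters of GRCm38.p6, which run from 250 bases before the start of the transcript to 50 after it, were found for 36 of the 43 genes. No promoter entry was used for Atp6v1b2, Atp6v1h, Laptm4b, Galns, Asah1, Ctsh and Ctsb. The promoters of the 5 genes that changed follow, 5′ to 3′, with the E-box core CACGTG in capitals. It is a palindrome, so 1 search covers both strands.
Glb1, chr9:114400828-114401127, plus strand: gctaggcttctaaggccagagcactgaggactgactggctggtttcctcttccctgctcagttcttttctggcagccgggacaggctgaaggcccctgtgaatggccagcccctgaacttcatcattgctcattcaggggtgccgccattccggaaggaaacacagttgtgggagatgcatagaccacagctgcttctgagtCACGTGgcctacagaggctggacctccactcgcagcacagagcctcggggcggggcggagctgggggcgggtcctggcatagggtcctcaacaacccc
Gaa, chr11:119267713-119268012, plus strand: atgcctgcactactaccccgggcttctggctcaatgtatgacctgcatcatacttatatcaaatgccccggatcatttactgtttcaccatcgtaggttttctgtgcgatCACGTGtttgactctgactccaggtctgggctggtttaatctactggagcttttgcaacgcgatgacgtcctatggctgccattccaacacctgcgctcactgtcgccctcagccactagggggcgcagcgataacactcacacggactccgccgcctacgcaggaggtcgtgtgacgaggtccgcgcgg
Arsa, chr15:89477375-89477674, minus strand: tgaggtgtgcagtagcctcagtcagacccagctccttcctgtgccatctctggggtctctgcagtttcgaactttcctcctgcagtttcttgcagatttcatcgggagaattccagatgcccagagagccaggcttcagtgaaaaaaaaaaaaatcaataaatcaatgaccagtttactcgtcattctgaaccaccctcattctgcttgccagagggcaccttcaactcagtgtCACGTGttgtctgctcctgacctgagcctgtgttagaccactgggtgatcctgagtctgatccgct
Ctsz, chr2:174438990-174439289, minus strand: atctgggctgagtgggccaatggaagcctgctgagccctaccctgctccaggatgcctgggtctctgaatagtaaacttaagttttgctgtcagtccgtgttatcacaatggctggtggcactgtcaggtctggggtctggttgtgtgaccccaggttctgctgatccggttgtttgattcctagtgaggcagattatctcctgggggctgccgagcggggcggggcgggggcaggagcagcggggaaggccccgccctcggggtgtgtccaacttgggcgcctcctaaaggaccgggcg
Laptm5, chr4:130913066-130913365, plus strand: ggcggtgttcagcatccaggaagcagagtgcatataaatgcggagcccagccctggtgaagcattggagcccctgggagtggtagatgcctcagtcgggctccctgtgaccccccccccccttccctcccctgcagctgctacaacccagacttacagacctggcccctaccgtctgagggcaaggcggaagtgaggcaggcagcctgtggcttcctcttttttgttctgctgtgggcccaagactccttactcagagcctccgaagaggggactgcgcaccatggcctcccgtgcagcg
The core stands once in the promoters of Glb1, Gaa and Arsa, with its first base at -48, -140 and -16 from the start, and these letters are not in the windows of Ctsz and Laptm5. The genes themselves, all protein-coding, lie on chromosome 9 at 114401076 to 114474898 (Glb1), 11 at 119267887 to 119285454 (Gaa), 15 at 89472476 to 89477425 (Arsa), 2 at 174427493 to 174439039 (Ctsz) and 4 at 130913125 to 130936141 (Laptm5) in GRCm38 with GENCODE M21.

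Over the 36 genes with a promoter, 15 (41.7%) held at least 1 CACGTG, against 12.05% of 9145 tested genes and 8.09% of 27025 genes with a promoter in the table. A gene was counted if any of its promoters held the letters, and 6 members had more than 1 promoter. Counted by promoter, the core stood in 34.9% of the members' 43, against 10.2% of 11626 promoters of tested genes. The 8-letter palindrome TCACGTGA, which contains the core and is the centre of the CLEAR element, stood in 7 of 36 (19.4%), against 2.37% of the tested genes and 1.125% of all. The 10-letter form GTCACGTGAC stood in Cln3 alone (2.78%, against 0.864% of the tested genes). The members were listed as lysosomal genes, a class already known for this motif. Their higher shares therefore follow in part from how the list was made, and are no independent result. Median GC content was 56.7% in the members' promoters and 60.7% in those of the tested genes. The 9 places with the 8-letter form follow with 12 bases on each side of the core, which is in capitals, to show the places themselves. The T before and the A after the core are fixed by the search, and the likeness of the other flanking bases was not measured.
Atp6v0d1, chr8:105566050-105566079, minus strand: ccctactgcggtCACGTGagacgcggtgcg
Atp6v1a, chr16:44139373-44139402, minus strand: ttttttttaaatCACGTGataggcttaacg
Cln3, chr7:126583340-126583369, minus strand: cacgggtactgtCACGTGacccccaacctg
Ctsa, chr2:164833749-164833778, plus strand: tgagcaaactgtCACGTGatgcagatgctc
Ctsa, chr2:164833766-164833795, plus strand: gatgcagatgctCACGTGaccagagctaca
Ctsd, chr7:142387908-142387937, minus strand: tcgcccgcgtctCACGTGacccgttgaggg
Gla, chrX:134601182-134601211, minus strand: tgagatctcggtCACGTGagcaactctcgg
Gla, chrX:134601215-134601244, minus strand: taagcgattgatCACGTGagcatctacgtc
Mcoln1, chr8:3500462-3500491, plus strand: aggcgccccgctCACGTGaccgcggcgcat
Ctsa and Gla hold it at 2 places each. Lamp1 has the core at 4 places between -61 and -15 from the start, none of them with the 8-letter form.
Lamp1, chr8:13159088-13159117, plus strand: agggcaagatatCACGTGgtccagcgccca
Lamp1, chr8:13159104-13159133, plus strand: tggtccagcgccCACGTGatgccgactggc
Lamp1, chr8:13159121-13159150, plus strand: gatgccgactggCACGTGaccacatcacgt
Lamp1, chr8:13159134-13159163, plus strand: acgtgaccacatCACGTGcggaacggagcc
The 7 genes with the 8-letter form encode a channel (Mcoln1), proteases (Ctsa, Ctsd), a glycosidase (Gla), a membrane protein (Cln3) and pump subunits (Atp6v0d1, Atp6v1a).

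The genes with a core did not share a direction. Their log2 fold changes ran from -0.37 (Gla) to 0.56 (Arsa) with a median of -0.01, 7 of 15 were above 0, and 3 rose. The 21 genes whose window lacks it ran from -0.17 to 0.28 with a median of 0.06, and 1 rose and 1 fell. Of all genes tested, 6.68% rose and 5.36% fell. These shares were not measured separately for tested genes with and without the core, so the small counts cannot be judged by it. For the 7 genes with the 8-letter form the range was -0.37 to 0.23 and the median -0.02, and the smallest edgeR adjusted p was the 0.0563 of Ctsd. These are descriptions of letters in a window. They do not show binding, and a window without them says nothing of the factor.

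**Figure D4:**
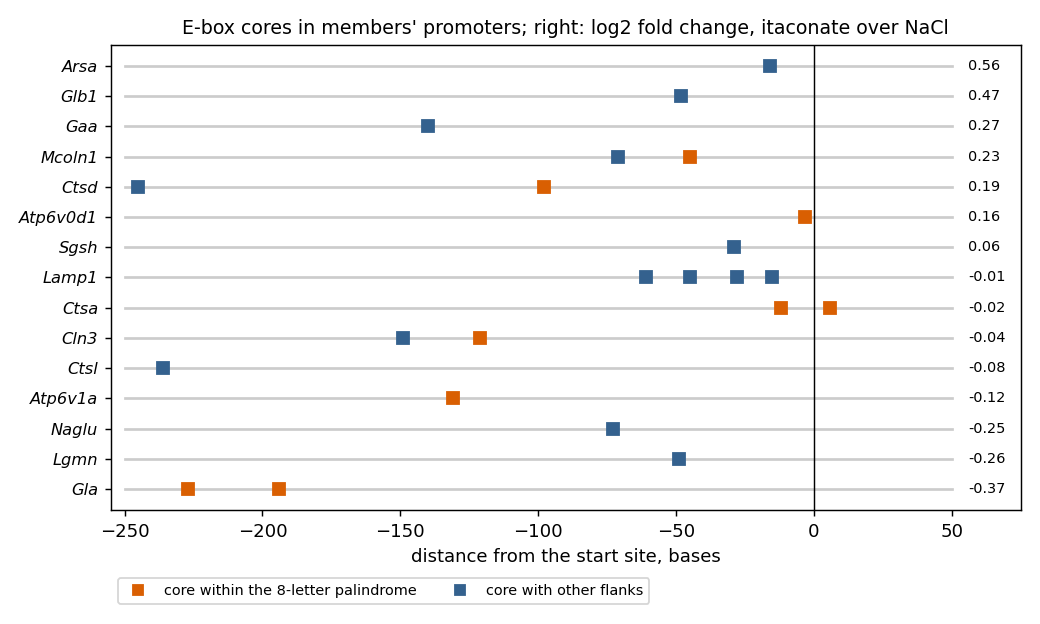
Distance in bases from the start site (horizontal axis) of each E-box core in the promoters of the 15 members that hold one, ordered by log2 fold change (itaconate over NaCl), which is printed at the right. Orange squares mark cores within the 8-letter palindrome and blue squares other cores, and both kinds stand beside values above and below 0, from 0.56 to -0.37.

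Further genes of the pathway were read from 6 lists, of which 217 of 219 genes were in the tables. Of 38 tested further hydrolases and cofactors, 5 rose (13.2%, against 6.68% of all genes tested) and 1 fell (2.63%, against 5.36%), a median log2 fold change of 0.05. Fits that left out 1 library called 1 to 4 of them higher, the fewest without NaCl replicate 2, DESeq2 called 3, and effective-length offsets or limma on TPM left Ctsw alone. The largest change was that of Ctsw, a cathepsin of cytotoxic cells (0.64 ± 0.055, edgeR adjusted p 9.31e-06), which passed in all 16 alternatives. Ifi30, the thiol reductase GILT, averaged 40.7 ± 0.537 CPM with itaconate and 34.0 ± 0.745 CPM with NaCl (adjusted p 0.01535, and 0.0839 without NaCl replicate 2). Acp5, the tartrate-resistant acid phosphatase, fell to 20.55 ± 0.839 CPM with itaconate, against 25.05 ± 1.03 CPM with NaCl (adjusted p 0.0304), and every fit that left out 1 library missed the threshold (0.0557 to 0.0923). Man2b2, an alpha-mannosidase (0.21 ± 0.066, edgeR adjusted p 0.0499), and Cstb, an inhibitor of cathepsins (0.30 ± 0.082, adjusted p 0.0308), also rose. Each missed the threshold in 5 of the 6 fits that left out 1 library, with adjusted p-values up to 0.198 for Man2b2 and 0.134 for Cstb. Of 41 further membrane proteins and transporters, 2 rose (4.88%, against 6.68%) and 1 fell (2.44%, against 5.36%). Npc1, the cholesterol exporter that works with Npc2, averaged 44.65 ± 2.465 CPM with itaconate and 36.8 ± 2.795 CPM with NaCl (0.28 ± 0.073, adjusted p 0.0217), but did not pass without itaconate replicate 3 (0.111) or NaCl replicate 3 (0.0795). Abca2, a lipid transporter, rose (0.29 ± 0.070) and Slc15a4, a peptide and histidine transporter, fell (-0.38 ± 0.10), and each lost its call in 4 of the 6 fits that left out 1 library. Those were itaconate replicates 1 and 3 and NaCl replicate 2 for both, with NaCl replicate 3 for Abca2 (adjusted p 0.0510 to 0.0879) and NaCl replicate 1 for Slc15a4 (0.0628 to 0.104). Of further pump subunits, none of 17 passed edgeR's test and none of 20 passed DESeq2's. Under an unadjusted p of 0.05 were 6 with edgeR (35.3%, against 26.5% of all genes tested) and 3 with DESeq2. Single members were called by edgeR without itaconate replicate 1 (Atp6v1g1 higher, Dmxl1 lower) and without itaconate replicate 3 (Rnasek higher). With all 6 libraries and replicate number as a block, Atp6v1f, Atp6v1g1 and Rnasek were called higher. Without the low-count filter, Atp6v1g1 and Rnasek were called higher and Dmxl1 lower.

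Of 32 genes of lysosomal sorting and fusion, 1 rose and 1 fell (3.125% each, against 6.68% and 5.36% of all genes tested). Gnptab, which encodes the enzyme that starts the mannose 6-phosphate tag, fell to 59.2, 52.9 and 55.8 CPM in itaconate libraries, against 73.2, 72.3 and 69.6 CPM in NaCl libraries (-0.36 ± 0.060, edgeR adjusted p 0.00163), without overlap, and was called in each fit that left out 1 library. Vps16, of the tethering complexes that fuse vesicles with lysosomes, rose by 0.21 ± 0.058 on the log2 scale (adjusted p 0.0284), and of the fits that left out 1 library it passed without NaCl replicate 2 alone (0.0353; the 5 others 0.0531 to 0.0960). With effective-length offsets Gnptab was called (edgeR adjusted p 0.00436) and Vps16 was not (0.414). Limma on log2(TPM + 1) likewise called Gnptab (0.0210) and not Vps16 (0.540).

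Of 39 autophagy genes, 5 fell and 34 did not pass, which is 12.8% beside the 5.36% of all genes tested that fell. Nbr1, a receptor for ubiquitin-tagged cargo, fell to 30.4, 28.5 and 29.6 CPM with itaconate, against 39.2, 39.0 and 35.4 CPM with NaCl (-0.36 ± 0.070, edgeR adjusted p 0.00468), and was called in each fit that left out 1 library. Atg13, of the kinase complex that starts autophagosomes, was at -0.30 ± 0.084 (adjusted p 0.0319) and passed without NaCl replicate 3 alone (0.00834; the 5 others 0.0546 to 0.145). Wipi2, which binds phosphoinositide on forming autophagosomes (-0.21 ± 0.059, adjusted p 0.0322), Rb1cc1, the scaffold FIP200 of the starting kinase (-0.29 ± 0.082, 0.0333), and Atg12, a ubiquitin-like protein (-0.31 ± 0.090, 0.0365), each missed the threshold in 5 of the 6 fits that left out 1 library, with adjusted p-values up to 0.148, 0.113 and 0.143. DESeq2 called 3 of the list lower and, with effective-length offsets, edgeR called 1, Atg9a, a lipid scramblase of growing autophagosomes. Nbr1 missed the threshold with these offsets (edgeR adjusted p 0.0937) and with limma on log2(TPM + 1) (0.117), which called none of the list.

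Of 38 genes of mTORC1, the RAG GTPases that recruit it to lysosomes, and folliculin, 2 rose and 1 fell. That is 5.26% and 2.63%, against 6.68% and 5.36% of all genes tested. Rragd, which encodes the RagD GTPase and is known as a target of TFEB and its relatives, was at 10.8, 11.3 and 9.57 CPM in itaconate libraries and at 4.64, 5.65 and 4.0 CPM in NaCl libraries. The groups were far apart (1.16 ± 0.15, SE; edgeR adjusted p 0.00023), and the call held in each fit that left out 1 library (adjusted p up to 0.00199). It was lost with effective-length offsets, at a log2 fold change of 1.11 (adjusted p 0.176), and with limma, at a difference of 1.01 on log2(TPM + 0.1) (0.195) and of 0.71 on log2(TPM + 1) (0.200). Sesn3, a stress-induced inhibitor of mTORC1, averaged 66.4 ± 2.04 CPM with itaconate and 57.0 ± 4.25 CPM with NaCl (adjusted p 0.0373), and Rraga, the RagA GTPase, 59.7 ± 2.11 CPM with itaconate and 68.2 ± 0.922 CPM with NaCl (adjusted p 0.0385). Of the fits that left out 1 library, Sesn3 passed without NaCl replicate 1 alone (adjusted p 0.0402, the 5 others 0.0645 to 0.147), and Rraga without NaCl replicate 3 alone (0.0451, the 5 others 0.0600 to 0.131). Neither passed with effective-length offsets (edgeR adjusted p 0.0661 for Sesn3 and 0.108 for Rraga) or with limma on log2(TPM + 1) (0.122 and 0.0800).

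**Figure D5:**
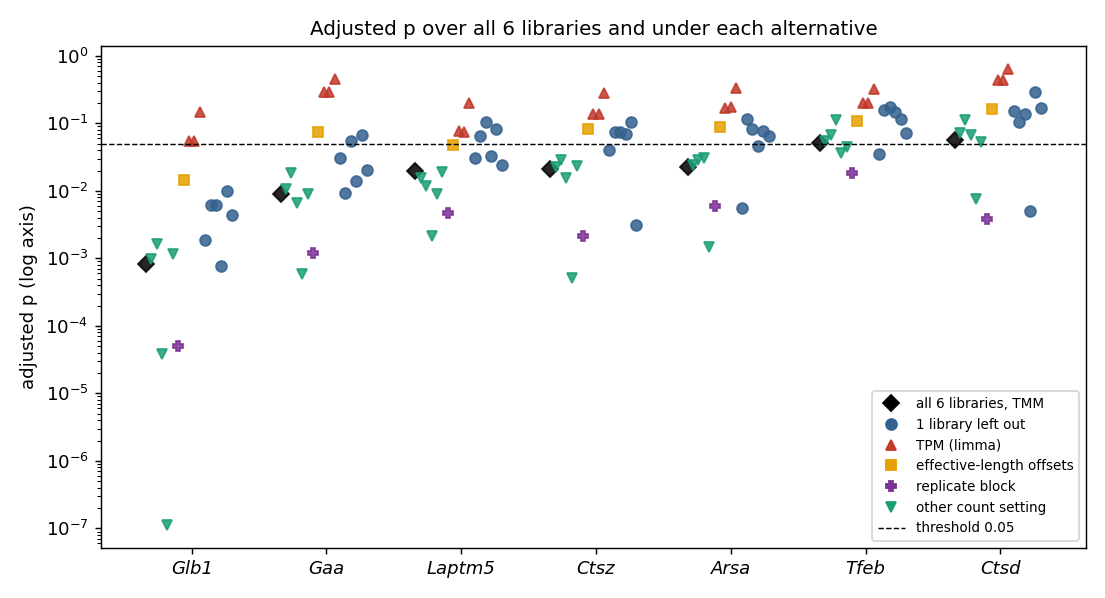
Adjusted p (log axis) of the 5 changed genes, Tfeb and Ctsd over all 6 libraries (diamond) and under each alternative (other marks), with the threshold of 0.05 as a dashed line. Glb1 is past the threshold under every count setting and above it on TPM, while the other genes lie on both sides.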

How the data were processed

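Levels came from 1 gene table per library, with RSEM's column names. The authors' expected counts estimate how many fragments fall on a gene and carry no normalisation, per the file headers. TPM values were made by the authors from counts and effective length, per the file headers, and scaled to the same total in each library. Bowtie 0.12.2 and the builds mm8 and mm10 appear, without a role, among tools listed per the submitters' processing notes. No source used here gives the annotation or strand setting. GENCODE M21 (GRCm38) was used for positions only, and 99.83% of identifiers matched it.

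Expected counts (5.99% to 6.93% of genes per library were further than 0.001 from whole) were rounded. The whole table was fitted with edgeR 4.0.16 in R 4.3.3 (TMM, minimum count 10, minimum total 15, robust quasi-likelihood, two-sided), and p-values were adjusted over 12350 genes. DESeq2 1.42.0 and limma 3.58.1 gave alternatives. Standard errors come from the F statistic. The fit was tested on simulated counts with the same dispersion for all genes. Of planted changes it called 48% at 1.25-fold and 98% at 1.5-fold, and 8 of its 181 calls fell on unchanged genes. Many changes of 1.25-fold or less would thus be missed. Members, roles and lists were chosen with earlier results of these data known. Each member and, from each further list, the 2 lowest adjusted p-values in each direction were described. Tmppe, Nelfcd, C230037L18Rik, Foxp3, Thy1, Gm49369, Cstb, Man2b2, Wipi2, Rb1cc1, Atg12, Atp6v1f, Atp6v1g1, Dmxl1, Rnasek and Atg9a were chosen after their values were seen. A called gene of the further lists is not reported here. No pair of replicates looked like a repeated library (chi-square per gene 4.93 to 16.5).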

Additional observations from a re-analysis of the deposited data

How the results depend on the processing

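With relative log expression factors, library totals or DESeq2 the counts were again 4 higher and 1 lower, and DESeq2 called the same 5 genes. Without a low-count filter 6 were higher and 2 lower. With offsets for effective length 1 was higher, 1 lower, and 567 genes of all were called. With limma on log2(TPM + 1), log2(TPM + 0.1), or log2(TPM + 1) without the count filter, 0 members were called either way (7, 8 and 7 had an unadjusted p under 0.05), while 340, 356 and 59 genes of all were. The causes were not tested. Leaving out 1 library gave 1 to 6 members higher, 0 to 1 lower, and 726 to 1400 genes of all called, against 1487. The median log2 fold change of the members, 0.0040, was 0.00158 to 0.0506 without 1 library, -0.0195 with library totals, 0.0435 over the 36 members with a mean of at least 10 CPM, 0.0265 with length offsets, and -0.0279, -0.0361 and -0.0279 on the TPM scales in the order above, where the medians of all genes were -0.0496, -0.0574 and -0.0192.

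With the replicate block 7 members were higher, 2 lower, and 2419 genes of all were called. The members gained were Atp6v1h (edgeR adjusted p 0.044), Tfeb (0.0181) and Ctsd (0.00384), all higher, and Gla (0.0371), lower. The numbers were not taken to pair the libraries, as no source used here says that they do. Deviations of same-numbered libraries correlated by 0.154, 0.0398 and 0.0308. Itaconate replicates 1 and 3 were nearest to the NaCl library of the same number, and itaconate replicate 2 to NaCl replicate 3. These values do not settle whether the libraries were paired. Of members called in neither fit, 0 to 6 had the other sign per alternative, and no called member turned. Among all called genes 39.1% and 39.6% were higher on the first pair of TPM scales and 46.4% with library totals, against 55.5%. With 5 to 87 counts per library, Ctsh, Lgmn and Laptm4b allow no statement on small differences.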
